A study of Homo sapiens with 48 samples.

Results

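The genes described here are 10 transcripts of the ERK pathway's output and feedback, taken by name from the 57820 genes of the deposited table. They are the ETS transcription factors ETV1, ETV4 and ETV5, the phosphatases DUSP4 and DUSP6, the inhibitors SPRY2, SPRY4, SPRED1 and SPRED2, and the kinase MAP2K6. All 10 passed the filter on low counts and were among the 19129 genes tested. They were chosen with measured values of these same libraries in view, in most cases lower levels after UPF1 knockdown. The knockdown responses of all 10 are therefore given below as a description without a test. RNA was measured in 48 libraries from Flp-In 293 T-REx cells, a derivative of the human embryonic kidney line HEK293 that carries a single integration site for a transgene. Each library came from 1 of 8 stable lines, which expressed the CLIP tag alone (CLIP), CLIP-tagged wild-type UPF1 (WT), or CLIP-tagged UPF1 with the change K498A, DE636AA, R843C, A546H, GA-KH or E797R. UPF1 is the helicase at the centre of nonsense-mediated mRNA decay (NMD), and by its title the study concerns autoinhibition and activation of its ATPase. Every line was transfected with 40 nM of a non-targeting siRNA (siNT) or of an siRNA against endogenous UPF1 (siUPF1) and harvested after 72 h, which gave 16 groups of 3 libraries. The siRNA was directed at endogenous UPF1 in all lines, CLIP included. The labels do not say whether a line is a clone or a pool, and they name no inducer of the transgene.

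Growth factor receptors signal through RAS, RAF and MEK to the kinase ERK, which moves to the nucleus and changes transcription. ETV1, ETV4 and ETV5 are closely related ETS factors whose genes are among the best known outputs of the pathway, and the repressor CIC holds them off until ERK signalling inactivates it. The other genes of the set mostly feed back on the pathway: DUSP4 and DUSP6 remove phosphate from ERK, and the Sprouty (SPRY) and SPRED proteins act on receptors and on RAS and RAF. MAP2K6 differs from the rest, since it is a kinase that activates p38, another MAP kinase.

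The libraries held between 21.3 and 47.1 M expected counts each, with a median of 32.3 M. Levels are given as CPM, counts scaled to the normalised library total. The lowest count of any of the 10 genes in any library was 19, for SPRY4, so all were measured in every library. UPF1 was checked first. In CLIP its 3 siNT libraries held 105, 106 and 113 CPM and its 3 siUPF1 libraries 18.2, 36.8 and 17.7 CPM, so siUPF1 replicate 2 kept more UPF1 than the others. In the 7 other lines every library held 3695 CPM or more of UPF1, in which transgene and endogenous reads were counted together, so loss of the endogenous part is not visible. Of the markers expected in HEK293-type cells, NEFL ran from 172 to 480 CPM, INA from 22.7 to 66.6, PAX2 from 2.37 to 9.12 and NEFM from 0.823 to 2.72. The 4 together summed to 236 to 382 CPM in siNT libraries and 296 to 552 in siUPF1 libraries. Of 9 markers of other cell types, PTPRC, CD3E, ALB, APOA1 and KRT5 stayed under 0.28 CPM in every library, while the epithelial marker EPCAM held 63.1 to 98.6 CPM. The fibroblast markers COL3A1 and COL1A1 held 2.63 to 13.4 and 0.995 to 4.79 CPM, and the glial marker GFAP 0.0343 to 0.927 CPM. The sum of these 9 was 90.5 to 105 CPM with siNT and 75.2 to 113 with siUPF1. Their part in the values below was not tested.

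Transfection with siUPF1 was followed by lower levels of most of these genes in all 8 lines, WT included. Total UPF1 had a log2 response of -2.17 (SE 0.17) in CLIP and -0.13 (SE 0.16) in WT. Whether the lower levels came from loss of UPF1 or from the siRNA itself was not tested. Of the genes, 6 (ETV1, ETV4, ETV5, DUSP6, SPRY4 and SPRED1) had all 3 siUPF1 libraries below all 3 siNT libraries in 8 of 8 lines. In a single line 20.2% to 25.8% of all tested genes were so arranged, and their share in 8 of 8 lines was not counted. As the genes were selected on this contrast, the separation is a description only. SPRY2 and MAP2K6 had this separation in 7 of 8 lines and DUSP4 in 5. SPRED2 was the exception, with lower siUPF1 libraries in 1 line, higher ones in 1 line and overlapping ranges in 6. The largest falls were those of ETV4 to 13.04% of its siNT level in GA-KH and 13.1% in E797R, followed by MAP2K6 to 13.9% in CLIP. In these bulk libraries, fewer cells of a kind and less RNA per cell cannot be told apart.

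**Figure D1:**
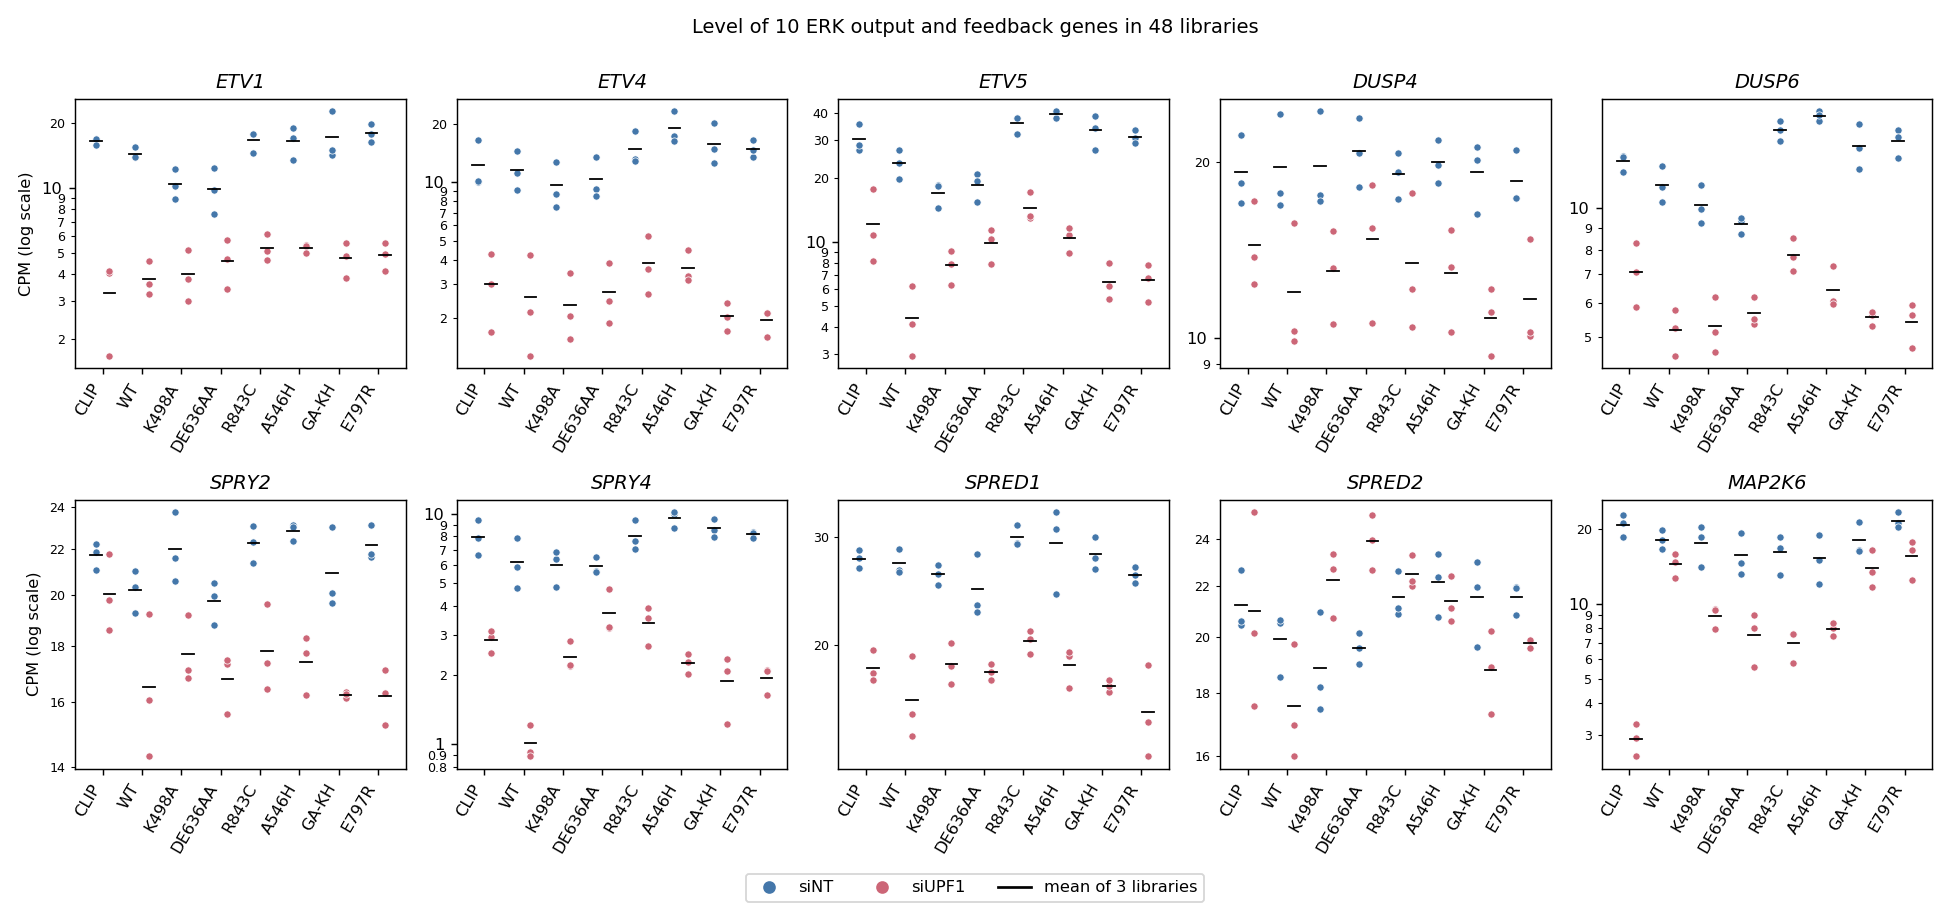
Level of each gene in CPM on a log axis, by line, with 1 point per library for siNT (blue) and siUPF1 (red) and a black bar at the mean of 3 libraries. ETV1, ETV4, ETV5, DUSP6, SPRY4 and SPRED1 show no overlap between the siRNAs in any of the 8 lines, whereas the SPRED2 ranges overlap in 6 lines, and MAP2K6 is lowest in CLIP siUPF1, at 2.46 to 3.30 CPM. In a single line, 20.2% to 25.8% of all tested genes had all siUPF1 libraries below all siNT libraries.

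By line, the number of the 10 genes with all siUPF1 libraries below all siNT libraries was 10 in E797R, where 21.1% of all tested genes were so arranged, 9 in WT (20.2%), 9 in A546H (21.4%), 9 in K498A (23.8%), 8 in GA-KH (21.3%), 8 in R843C (25.8%), 8 in DE636AA (23.1%) and 7 in CLIP (23.4%). The number called lower by edgeR's quasi-likelihood test, at a Benjamini-Hochberg adjusted p under 0.05, was 9 in E797R (13.5% of all tested genes), 9 in A546H (15%), 9 in K498A (16.5%), 8 in WT (13.3%), 8 in GA-KH (13.8%), 8 in R843C (14.8%), 8 in DE636AA (17.6%) and 7 in CLIP (22.3%). In addition SPRED2 was called higher in K498A, where 16.2% of all tested genes were, and in DE636AA (16.7%). Since the genes were selected on this contrast, nothing is read from these counts. The median log2 response of the 10 ran from -1.14 in A546H to -0.68 in DE636AA, while that of all tested genes lay between -0.02 and 0.02 in every line. Without CLIP siUPF1 replicate 2, 7 genes were called lower in CLIP, as with it. With the replicate number as a block, 9 were called lower in each of WT, K498A, DE636AA, R843C and GA-KH, the lines in which same-numbered libraries deviated together.

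**Figure D2:**
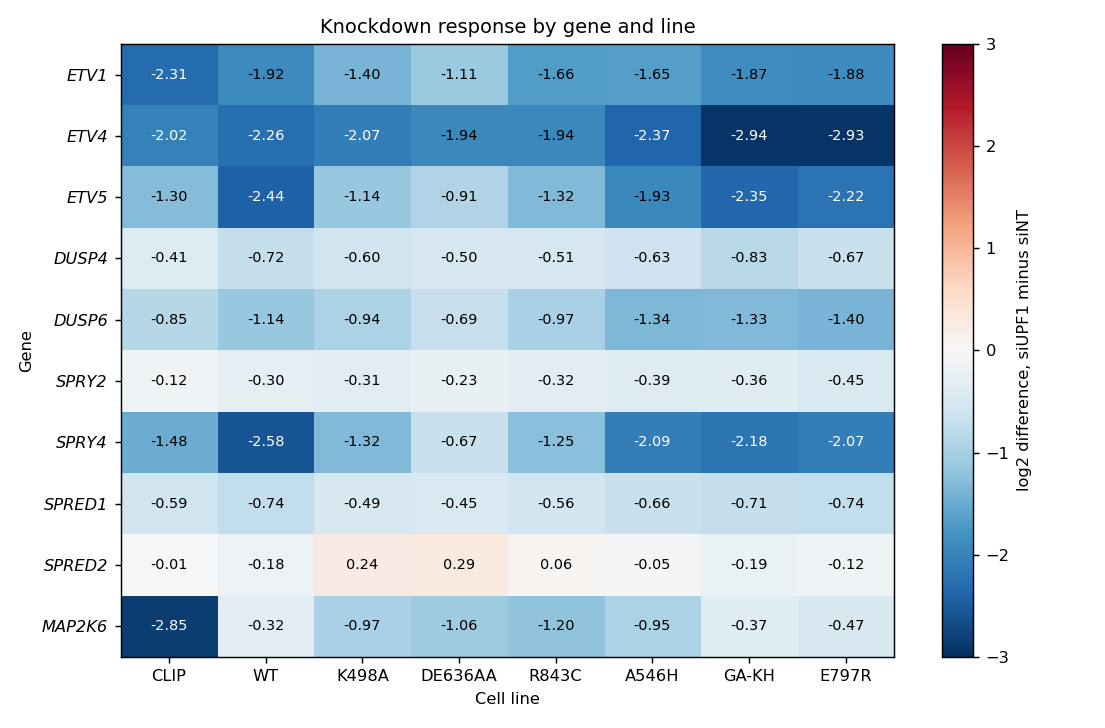
Log2 difference between siUPF1 and siNT for each gene (rows) and line (columns), with blue for lower and red for higher levels after knockdown. ETV4 is at -1.94 or below in all 8 lines, SPRED2 is between -0.19 and 0.29, and MAP2K6 runs from -2.85 in CLIP to -0.32 in WT.

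Promoter windows from RefSeq (GRCh38.p14) were used for 7 of the 10 genes, 16 windows in all. None were used for ETV4, ETV5 and DUSP4. Each window, 250 bases before to 50 after a start, was searched on both strands for the CIC octamers TGAATGAA and TGAATGGA, the ETS core CCGGAAGT, the AP-1 motif TGANTCA and the CRE TGACGTCA. The 250 bases before the start are printed for 4 genes that stand for the main patterns of response. They are ETV1, the feedback genes DUSP6 and SPRY4, and MAP2K6 at its upstream start, and capitals mark a motif match.
ETV1, chr7:13991426-13991675, strand -: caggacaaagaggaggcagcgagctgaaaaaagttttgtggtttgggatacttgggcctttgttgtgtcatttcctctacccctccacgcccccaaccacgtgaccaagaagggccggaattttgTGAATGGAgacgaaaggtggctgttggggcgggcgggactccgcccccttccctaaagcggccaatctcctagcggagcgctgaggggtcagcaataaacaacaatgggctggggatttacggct
DUSP6, chr12:89352502-89352751, strand -: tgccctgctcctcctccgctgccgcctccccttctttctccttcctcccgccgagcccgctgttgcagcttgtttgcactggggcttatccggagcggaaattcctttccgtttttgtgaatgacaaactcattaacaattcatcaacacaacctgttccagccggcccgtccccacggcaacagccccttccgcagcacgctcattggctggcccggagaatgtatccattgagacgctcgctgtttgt
SPRY4, chr5:142324248-142324497, strand -: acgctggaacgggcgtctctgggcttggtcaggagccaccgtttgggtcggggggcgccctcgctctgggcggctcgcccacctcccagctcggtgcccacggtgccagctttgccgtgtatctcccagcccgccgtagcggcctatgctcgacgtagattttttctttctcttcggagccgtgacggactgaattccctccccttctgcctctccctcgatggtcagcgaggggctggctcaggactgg
MAP2K6, chr17:69414447-69414696, strand +: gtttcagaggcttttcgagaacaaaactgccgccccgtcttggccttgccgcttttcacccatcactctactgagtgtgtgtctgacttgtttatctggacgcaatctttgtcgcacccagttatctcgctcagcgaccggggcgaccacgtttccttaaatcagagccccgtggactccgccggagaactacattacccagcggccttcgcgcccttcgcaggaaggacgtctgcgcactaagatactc
In the ETV1 window shown, 1 of 6 for that gene, the octamer TGAATGGA began 125 bases before the start. That octamer was present in 1.03% of 35116 windows of the same length in the reference, and TGAATGAA in 1.65%. The SPRED2 window at chr2:65366779-65367028, which is not printed, held the AP-1 motif at 6 bases before and 34 bases after its start, and 7.71% of all windows held that motif. TGAATGAA, the ETS core (4.14% of windows) and the CRE (1.85%) were in none of the 16 windows of these genes. A match describes letters and not binding, and no match says only that the letters are not in the window.

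ETV1 was lower after knockdown in every line. In CLIP the libraries held 16.9, 16.97 and 15.9 CPM with siNT and 4.04, 1.66 and 4.11 CPM with siUPF1, and in WT 13.9, 15.5 and 13.95 CPM with siNT and 3.61, 4.60 and 3.22 CPM with siUPF1. K498A and DE636AA had the lowest siNT means, with 10.2, 12.3 and 8.87 CPM with siNT and 2.98, 5.19 and 3.79 CPM with siUPF1 in K498A and 12.5, 7.55 and 9.85 CPM with siNT and 5.76, 3.40 and 4.67 CPM with siUPF1 in DE636AA. After knockdown all 8 lines lay between 1.66 and 6.12 CPM, and no pair of neighbours in the order of line means was free of overlap. With siNT, the order ran E797R, GA-KH, R843C, CLIP, A546H, WT, K498A and DE636AA, and only WT and K498A did not overlap among neighbours. The log2 response was -2.31 (SE 0.23) in CLIP and -1.92 (SE 0.23) in WT, against -1.40 (SE 0.22) in K498A and -1.11 (SE 0.22) in DE636AA. It was -1.88 in E797R, -1.87 in GA-KH, -1.66 in R843C and -1.65 in A546H. The CLIP value leans on siUPF1 replicate 2, the library with 1.66 CPM, and was -2.03 without it.

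ETV4 had the lowest median log2 response over the 8 lines of the 10 genes, at -2.16. Its response was -2.02 (SE 0.33) in CLIP, -2.26 (SE 0.34) in WT, -2.94 (SE 0.34) in GA-KH and -2.93 (SE 0.34) in E797R. In GA-KH the libraries held 14.8, 12.6 and 20.2 CPM with siNT and 1.72, 2.03 and 2.40 CPM with siUPF1, and in E797R 13.4, 14.7 and 16.5 CPM with siNT and 1.59, 2.13 and 2.13 CPM with siUPF1. The DE636AA libraries held 9.21, 8.499 and 13.5 CPM with siNT and 2.43, 1.89 and 3.83 CPM with siUPF1, and those of WT 9.16, 11.2 and 14.5 CPM with siNT and 1.27, 2.16 and 4.25 CPM with siUPF1. All siUPF1 libraries were below all siNT libraries in each line, but the spread within a group was wide. Across lines the siNT means ran from 9.66 ± 2.79 CPM (SD, n = 3) in K498A to 18.99 ± 3.69 CPM in A546H, with every pair of neighbours overlapping. ETV4 shares 68 exon bases on the opposite strand with DHX8 in GENCODE 29, and ETV5 shares 164 on the same strand with DGKG.

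ETV5, which acts with ETV4 downstream of fibroblast growth factors, had the widest range of responses of the 3 ETS factors. In WT the libraries held 19.7, 23.3 and 26.9 CPM with siNT and 2.92, 4.13 and 6.21 CPM with siUPF1. Those of GA-KH held 34.2, 26.9 and 38.8 CPM with siNT and 6.19, 5.42 and 7.94 CPM with siUPF1, and those of E797R 30.5, 33.3 and 28.98 CPM with siNT and 5.25, 7.82 and 6.79 CPM with siUPF1. These 3 lines had the lowest levels after knockdown. In CLIP the values were 26.8, 28.3 and 35.6 CPM with siNT and 10.7, 8.15 and 17.6 CPM with siUPF1, and in DE636AA 20.8, 15.4 and 19.3 CPM with siNT and 11.3, 7.904 and 10.4 CPM with siUPF1. K498A held 14.3, 18.5 and 18.2 CPM with siNT and 6.304, 7.84 and 9.11 CPM with siUPF1. The response was -2.44 (SE 0.23) in WT, -2.35 in GA-KH, -2.22 in E797R and -1.93 in A546H, but -1.30 (SE 0.21) in CLIP, -1.32 in R843C, -1.14 in K498A and -0.91 (SE 0.21) in DE636AA. In DE636AA ETV5 thus kept 53.3% of its siNT level, and in WT 18.5%. Levels with siNT ran from 17.02 ± 2.32 CPM in K498A to 39.8 ± 1.54 CPM in A546H (SD, n = 3).

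Both phosphatases were lower, and they differed in size of response. DUSP6, the cytoplasmic ERK phosphatase, held 10.3, 11.2 and 12.5 CPM with siNT and 4.51, 5.24 and 5.79 CPM with siUPF1 in WT. CLIP held 12.2, 13.3 and 13.2 CPM with siNT and 7.09, 5.88 and 8.27 CPM with siUPF1, and DE636AA 9.31, 8.72 and 9.498 CPM with siNT and 5.37, 6.19 and 5.51 CPM with siUPF1. In A546H the values were 16.8, 15.96 and 16.5 CPM with siNT and 6.07, 5.96 and 7.33 CPM with siUPF1. No siUPF1 library reached the siNT range of its line. The response ran from -0.69 (SE 0.12) in DE636AA to -1.40 (SE 0.12) in E797R, with -0.85 in CLIP and -1.14 in WT. An antisense transcript, AC024909.2, shares 1875 exon bases with DUSP6, and the strand setting of the counting is not given in the sources used here, so the DUSP6 count is uncertain. DUSP4, the nuclear phosphatase, had smaller responses, from -0.83 (SE 0.21) in GA-KH to -0.41 (SE 0.20) in CLIP. Its libraries held 16.3, 20.1 and 21.2 CPM with siNT and 9.302, 11.05 and 12.1 CPM with siUPF1 in GA-KH, and 17.02, 18.4 and 22.3 CPM with siNT and 12.4, 13.8 and 17.2 CPM with siUPF1 in CLIP, where the ranges overlapped. The ranges also overlapped in DE636AA and R843C. The highest DUSP4 library of a group was replicate 3 in 16 of 16 groups, so the spread within groups was shared between them.

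SPRY4, a Sprouty inhibitor of receptor signalling to RAS, had the widest range of responses among the feedback genes. In WT the libraries held 4.77, 5.92 and 7.84 CPM with siNT and 1.22, 0.925 and 0.887 CPM with siUPF1. GA-KH held 8.53, 7.97 and 9.52 CPM with siNT and 1.23, 2.09 and 2.35 CPM with siUPF1, and E797R 8.35, 8.24 and 7.89 CPM with siNT and 2.10, 1.64 and 2.09 CPM with siUPF1. All 3 WT siUPF1 libraries were below every siUPF1 library of GA-KH, the next lowest line. A546H held 8.696, 10.01 and 10.2 CPM with siNT and 2.02, 2.28 and 2.48 CPM with siUPF1. The other lines kept more, with 6.67, 7.87 and 9.42 CPM with siNT and 2.49, 2.92 and 3.12 CPM with siUPF1 in CLIP and 4.82, 6.39 and 6.84 CPM with siNT and 2.19, 2.22 and 2.81 CPM with siUPF1 in K498A. R843C held 7.03, 7.67 and 9.44 CPM with siNT and 2.68, 3.54 and 3.92 CPM with siUPF1, and DE636AA 5.67, 5.63 and 6.48 CPM with siNT and 3.19, 3.23 and 4.73 CPM with siUPF1. With siNT the lines differed less, and every pair of neighbours in the order of means overlapped. The response was -2.58 (SE 0.22) in WT, -2.18 (SE 0.19) in GA-KH and -0.67 (SE 0.18) in DE636AA, where 62.6% of the siNT level remained against 16.7% in WT. It was -1.48 in CLIP, -1.32 in K498A, -1.25 in R843C, -2.09 in A546H and -2.07 in E797R. The WT siUPF1 level is the lowest of any group for any of the 10 genes.

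SPRY2, another Sprouty protein, had a small response, from -0.45 (SE 0.09) in E797R to -0.12 (SE 0.09) in CLIP. Its libraries held 21.6, 21.8 and 23.1 CPM with siNT and 15.3, 16.3 and 17.1 CPM with siUPF1 in E797R. In CLIP they held 21.9, 21.1 and 22.2 CPM with siNT and 18.6, 21.8 and 19.8 CPM with siUPF1, and siUPF1 replicate 2 was within the siNT range. Without that library the CLIP response was -0.19. SPRED1, which recruits the RAS-inactivating protein neurofibromin to the membrane, was lower in all lines, from -0.74 (SE 0.11) in WT to -0.45 (SE 0.10) in DE636AA. It held 26.4, 26.3 and 28.7 CPM with siNT and 15.4, 14.2 and 19.2 CPM with siUPF1 in WT, and 28.1, 23.2 and 22.6 CPM with siNT and 18.6, 18.1 and 17.5 CPM with siUPF1 in DE636AA. Its related gene SPRED2 did not follow. The values were 19.6, 19.00 and 20.1 CPM with siNT and 25.1, 22.7 and 23.95 CPM with siUPF1 in DE636AA, where all siUPF1 libraries were higher, and 18.5, 20.5 and 20.6 CPM with siNT and 15.98, 19.7 and 16.95 CPM with siUPF1 in WT, where the ranges overlapped. K498A held 17.5, 20.9 and 18.2 CPM with siNT and 20.7, 23.3 and 22.7 CPM with siUPF1, also with overlap. The SPRED2 response was 0.29 (SE 0.09) in DE636AA, 0.24 (SE 0.09) in K498A, -0.18 (SE 0.09) in WT and -0.19 (SE 0.09) in GA-KH. In CLIP it was -0.01, and 0.09 without siUPF1 replicate 2.

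MAP2K6, the p38 kinase kinase, had another order of lines. In CLIP the libraries held 22.7, 21.04 and 18.5 CPM with siNT and 3.30, 2.92 and 2.46 CPM with siUPF1. In WT they held 19.7, 18.00 and 16.5 CPM with siNT and 15.9, 14.7 and 12.7 CPM with siUPF1, and in GA-KH 21.3, 16.4 and 16.3 CPM with siNT and 16.5, 11.7 and 13.5 CPM with siUPF1. The GA-KH ranges overlapped, and CLIP siUPF1 stood below all other groups. The other 4 lines lay between, with 9.52, 9.44 and 7.97 CPM in the siUPF1 libraries of K498A, 9.01, 7.99 and 5.604 in DE636AA, 7.597, 7.59 and 5.82 in R843C and 7.43, 7.97 and 8.38 in A546H. E797R held 23.3, 21.1 and 20.2 CPM with siNT and 17.6, 16.5 and 12.5 CPM with siUPF1. In the order of siUPF1 means, E797R, WT and GA-KH came first, then K498A, A546H, DE636AA and R843C, then CLIP. The neighbours GA-KH and K498A did not overlap, nor did R843C and CLIP, and all other neighbours did. The response was -2.85 (SE 0.20) in CLIP, and -2.87 without siUPF1 replicate 2. It was -0.32 (SE 0.17) in WT, -0.37 in GA-KH and -0.47 in E797R, and -0.95, -0.97, -1.06 and -1.20 in A546H, K498A, DE636AA and R843C. Levels with siNT ran from 15.3 ± 3.38 CPM in A546H to 21.5 ± 1.61 CPM in E797R (SD, n = 3), with every pair of neighbours overlapping.

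Differences of the response between lines were tested in the same fit, with adjustment over all tested genes. They use the same libraries as the responses the genes were selected on, the differences from WT share the WT libraries, and those from CLIP share the CLIP libraries. ETV5 in all lines, ETV4 in GA-KH and E797R, and MAP2K6 against or in CLIP had been singled out for their responses, and their differences are given without a test. Against WT, SPRY4 fell less in 4 lines. The difference of its log2 responses was 1.91 (SE 0.29) in DE636AA (adjusted p = 2.77e-05, edgeR), 1.34 (SE 0.29) in R843C (adjusted p = 0.00457, edgeR), 1.26 (SE 0.29) in K498A (adjusted p = 0.00784, edgeR) and 1.10 (SE 0.29) in CLIP (adjusted p = 0.00841, edgeR). Each of these 4 stayed called in all 12 fits that left out 1 library of the comparison. SPRED2 differed from WT in DE636AA, by 0.47 (SE 0.13) (adjusted p = 0.0303, edgeR), and this call ended in 6 of 12 such fits (adjusted p from 0.0558 to 0.0813). It also ended with no filter on low counts, at 0.51. With the replicate block the genes called against WT were 3 in K498A, 3 in DE636AA and 2 in R843C. SPRED2 in K498A was at 0.42 (SE 0.13) and missed the threshold (adjusted p = 0.0748, edgeR).

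Against WT the genes called among those open to test were 2 of 9 in DE636AA, where 4.5% of all tested genes were called, 1 of 8 in CLIP (11.9%), 1 of 9 in K498A (3.26%), 1 of 9 in R843C (1.94%), 0 of 8 in GA-KH (0%), 0 of 8 in E797R (0%) and 0 of 9 in A546H (0.298%). Of all 10 genes, 1 in A546H and none in GA-KH or E797R had an unadjusted p under 0.05, and DESeq2 called 0 in each of these 3 lines. For SPRY4 the difference from WT was 0.50 in A546H (95% confidence interval -0.10 to 1.09), 0.40 in GA-KH (95% confidence interval -0.19 to 0.99) and 0.51 in E797R (95% confidence interval -0.09 to 1.11). These intervals leave room for differences of up to 1.11, so equal responses are not shown. ETV5, untested, had differences from WT of 1.53 in DE636AA, 1.30 in K498A, 1.14 in CLIP and 1.12 in R843C, and 0.50, 0.22 and 0.09 in A546H, E797R and GA-KH. MAP2K6 lay on the other side of 0 in all mutant lines, and none was called by edgeR with the filter and without a block. Its difference from WT was -0.88 (SE 0.25) in R843C (adjusted p = 0.0539, edgeR), -0.74 in DE636AA, -0.65 in K498A, -0.63 in A546H, -0.15 in E797R and -0.05 in GA-KH. In CLIP, untested, it was -2.53. ETV1, ETV4, DUSP4, DUSP6, SPRY2 and SPRED1 had no called difference from WT among those tested by edgeR with the filter and without a block.

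**Figure D3:**
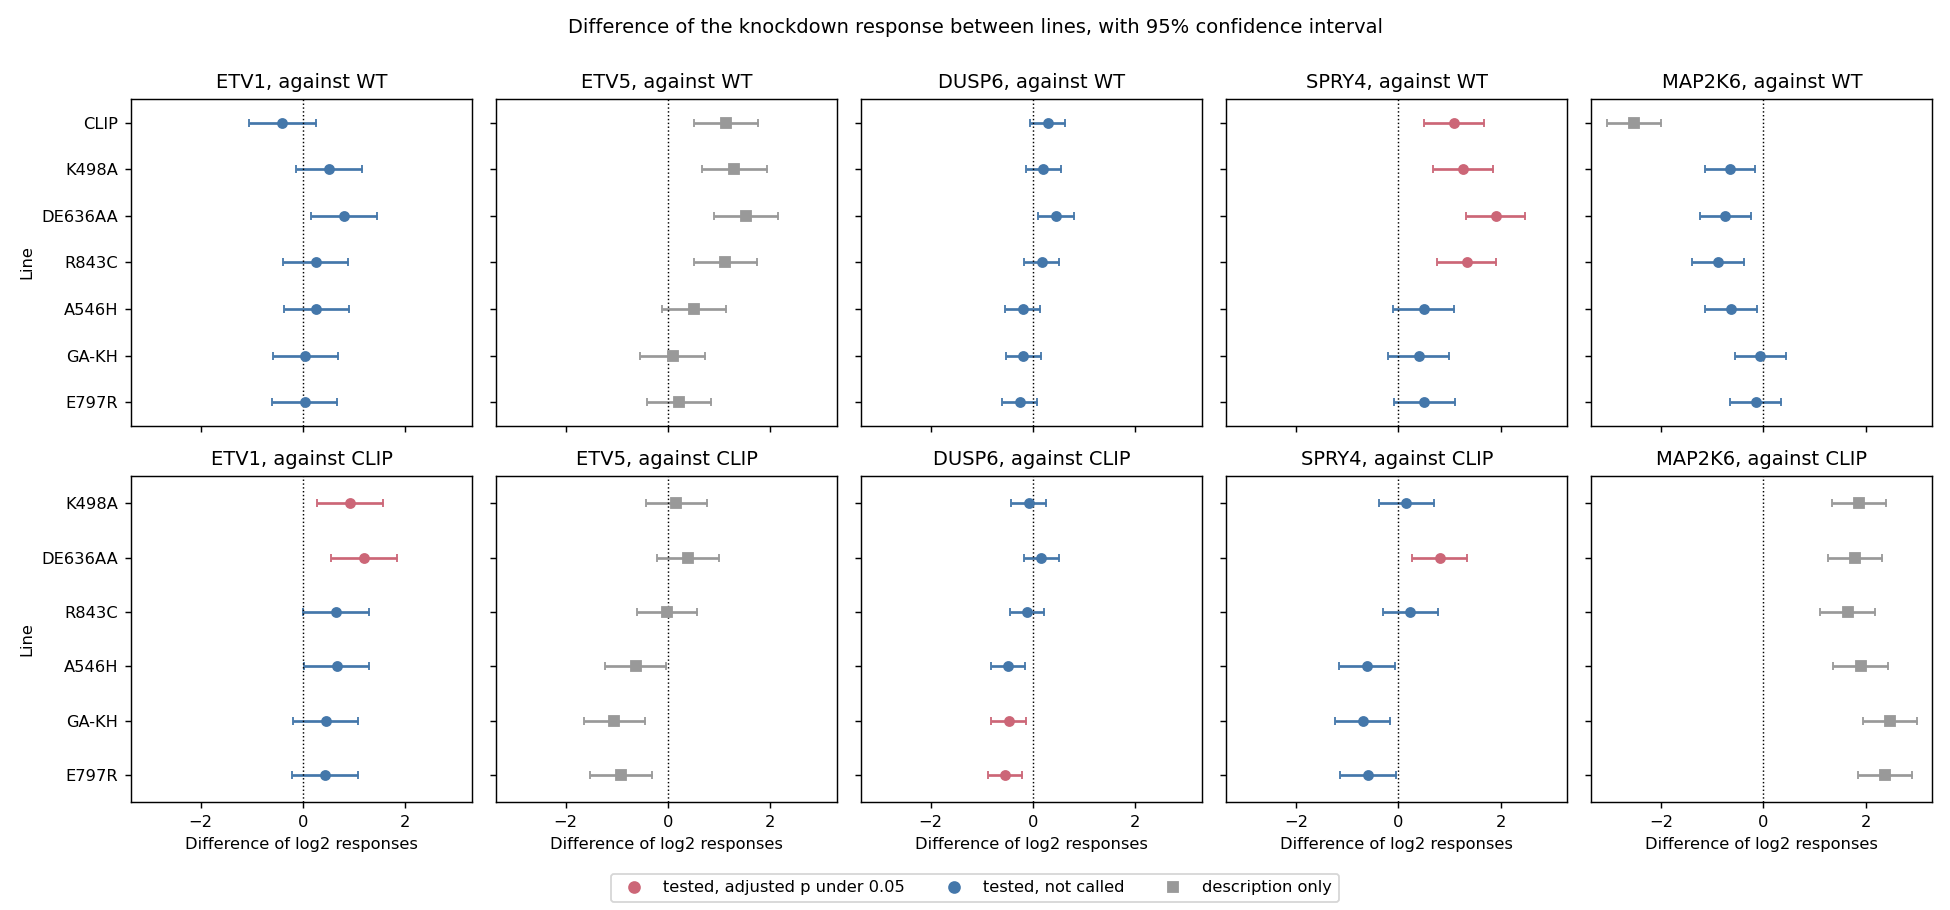
Difference of the log2 knockdown response from WT (upper row) and from CLIP (lower row) for 5 genes, with 95% confidence intervals, by line. Red circles are called, blue circles are tested and not called, and grey squares are given without a test. SPRY4 is above WT in CLIP, K498A, DE636AA and R843C, and DUSP6 is below CLIP in GA-KH and E797R.

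Against CLIP, the line with the tag alone, the calls fell into 2 directions. ETV1 fell less in DE636AA, by 1.20 (SE 0.32) (adjusted p = 0.00691, edgeR), and in K498A, by 0.91 (SE 0.32) (adjusted p = 0.0493, edgeR). Without CLIP siUPF1 replicate 2 these were 0.92 (adjusted p = 0.0297) and 0.62 (adjusted p = 0.195). The DE636AA call was kept in all 12 fits that left out a library, and the K498A call was lost in 8 of 12. SPRY4 also fell less in DE636AA, by 0.81 (SE 0.26) (adjusted p = 0.0285, edgeR; lost in 5 of 12 fits). DUSP6 fell more in E797R, with a difference of -0.55 (SE 0.17) (adjusted p = 0.0246, edgeR; lost in 4 of 12), and in GA-KH, with -0.48 (SE 0.17) (adjusted p = 0.04996, edgeR; lost in 9 of 12). Both DUSP6 calls ended with no filter on low counts, at -0.57 and -0.48. ETV5, untested, had differences from CLIP of -1.05 in GA-KH and -0.92 in E797R. Without CLIP siUPF1 replicate 3 the ETV5 values were -0.69 and -0.58.

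The genes called against CLIP among those open to test were 2 of 8 in DE636AA (17.9% of all tested genes), 1 of 7 in GA-KH (14.3%), 1 of 7 in E797R (13.3%), 1 of 8 in K498A (13.6%), 0 of 8 in A546H (5.63%) and 0 of 8 in R843C (0.753%). These shares do not set the genes apart from all tested genes. For the counts of 0, 2 of 10 genes in R843C and 6 of 10 in A546H had an unadjusted p under 0.05, and DESeq2 called 0 in R843C and 1 in A546H. Without CLIP siUPF1 replicate 2 the edgeR count was 0 in K498A and 1 in A546H. MAP2K6, untested, was above CLIP in every mutant line, by 1.65 in R843C to 2.48 in GA-KH, and ETV4, also untested, was at -0.92 in both GA-KH and E797R. DUSP4, SPRY2, SPRED1 and SPRED2 had no called difference from CLIP in any line by edgeR with the filter and without a block. With the replicate block the genes called were 2 in A546H and 3 each in GA-KH and E797R.

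Before knockdown, the levels in the 7 UPF1 lines were compared with those of CLIP siNT. DUSP6 was lower in DE636AA, at a log2 difference of -0.49 (SE 0.12, adjusted p = 0.0321, edgeR), with siNT libraries of 9.31, 8.72 and 9.498 CPM against 12.2, 13.3 and 13.2 CPM in CLIP. This call was lost in 5 of 6 fits that left out a library (adjusted p from 0.0941 to 0.213). It was the only call by edgeR without a block, and 1 of 10 genes in DE636AA stands beside 1.34% of all tested genes. In DE636AA, 5 of 10 were called with the replicate block and 3 by DESeq2. In the other lines 0 of 10 were called, beside 0.125% of all tested genes in A546H, 0.0889% in R843C, 0.0627% in GA-KH, 0.0366% in K498A, 0.0314% in WT and 0.0261% in E797R. In these 6 lines 3, 2, 0, 4, 1 and 0 genes, in that order, had an unadjusted p under 0.05, and DESeq2 called 1 in K498A and 0 in the other 5. With the replicate block 2 were called in A546H and 1 in K498A. The estimates for K498A and DE636AA were mostly negative: ETV5 was at -0.83 and -0.71 (adjusted p = 0.133 and 0.0634, edgeR), and ETV1 at -0.66 and -0.73 (adjusted p = 0.215 and 0.0621, edgeR). In both lines the fall of ETV1 and ETV5 after knockdown thus started from a lower siNT estimate than in CLIP. In A546H the ETV4 estimate was 0.63 and that of DUSP6 0.35, neither called (adjusted p = 0.726 and 0.41, edgeR).

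Levels were also compared per length, as mean CPM per kb of merged exon in GENCODE 29. This length, the union of all annotated exons, was 16.7 kb for MAP2K6 and 3.04 kb for SPRY2. Which transcripts were expressed was not tested, so the order need not be that of transcript numbers. Over the siNT groups SPRY2 had the highest value of the set at 7.07, followed by ETV5 at 4.93. Then came SPRED2 at 4.03, ETV4 at 3.76 and SPRED1 at 3.31. DUSP6 stood at 2.79, DUSP4 at 2.69, ETV1 at 1.56, SPRY4 at 1.15 and MAP2K6 at 1.07. Over the siUPF1 groups SPRY2 was at 5.71 and SPRED2 at 4.05, while ETV5 was at 1.55 and ETV4 at 0.765. SPRY4 was then the lowest of the set at 0.370.

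The genes were also compared with each other over the 16 group means of log2 CPM, which share the knockdown and the cell background, as a description. ETV5 and DUSP6 had a Pearson correlation of 0.98, ETV5 and SPRY4 0.97, and ETV4 and DUSP6 0.98. SPRED2 stood apart, with 0.14 to ETV1, 0.41 to SPRY4 and -0.31 to MAP2K6. Over the 8 siNT groups alone ETV5 had 0.97 with DUSP6, 0.95 with SPRY4, 0.94 with ETV4 and 0.98 with SPRED2. DUSP4 was negative with each of the other genes there, from -0.74 with MAP2K6 to -0.28 with ETV4. Its siNT means lay only between 18.5 and 20.9 CPM, with every pair of neighbours overlapping, so little is read from these values. Over the 8 responses ETV5 had 0.97 with SPRY4, 0.97 with SPRED1 and 0.94 with SPRED2. MAP2K6 was negative there with every gene of the set but ETV1, from -0.87 with DUSP4 to -0.27 with SPRED2, and 0.44 with ETV1. Its responses ran from -2.85 in CLIP to -0.32 in WT, and the weight of CLIP in these correlations was not tested.

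Among 11291 tested genes that averaged 5 CPM or more, the pattern over the 16 group means most like that of each gene was sought by Pearson correlation. ETV1 was closest to SEC61A2 (0.98) and CYLD (0.98), ETV4 to IDH3B (0.98) and CAMK2N2 (0.97), and ETV5 to STAMBP (0.96) and PRPF3 (0.96). DUSP4 was closest to SLC35G2 (0.99) and JPH3 (0.98), and DUSP6 to PLEKHB2 (0.97) and ZNF622 (0.97). SPRY2 was nearest to ZNF622 (0.97) and SCAMP5 (0.97), SPRY4 to ATG13 (0.97) and PRPF3 (0.97), and SPRED1 to KCTD20 (0.98) and HDDC2 (0.98). For SPRED2 the nearest were MFSD9 (0.90) and ZNF468 (0.89), and for MAP2K6 ESD (0.98) and SNX7 (0.98).

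Other genes of the pathway moved in both directions. In CLIP 25.1% of all tested genes were called higher and in WT 14%, beside the shares called lower given above. Of 13 receptor genes 6 higher and 3 lower were called in CLIP and 6 higher and 2 lower in WT. ERBB2 rose in WT from 41.1 ± 2.28 to 70.7 ± 7.67 CPM (SD, n = 3), and its dimerisation partner ERBB3 fell from 22.3 ± 2.21 to 12.3 ± 1.60 CPM. Of 14 adaptors and RAS regulators 7 higher and 1 lower were called in CLIP and 4 higher and 0 lower in WT. Among them in WT were PTPN11, a phosphatase that promotes RAS activation, at a log2 difference of 0.43 (SE 0.07), and RASA1, which inactivates RAS, at 0.35 (SE 0.08). Of 13 kinases and GTPases from RAS to ERK 4 higher and 1 lower were called in CLIP and 3 higher and 0 lower in WT, with the scaffold KSR1 at 0.44 (SE 0.09) and the RAF kinase ARAF at 0.43 (SE 0.08). Of 13 further output and feedback genes 1 higher and 6 lower were called in CLIP and 1 higher and 4 lower in WT. The receptor gene EPHA2 fell in WT by 0.79 (SE 0.15) on the log2 scale, whereas cyclin D1 (CCND1) rose by 0.64 (SE 0.07).

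**Figure D4:**
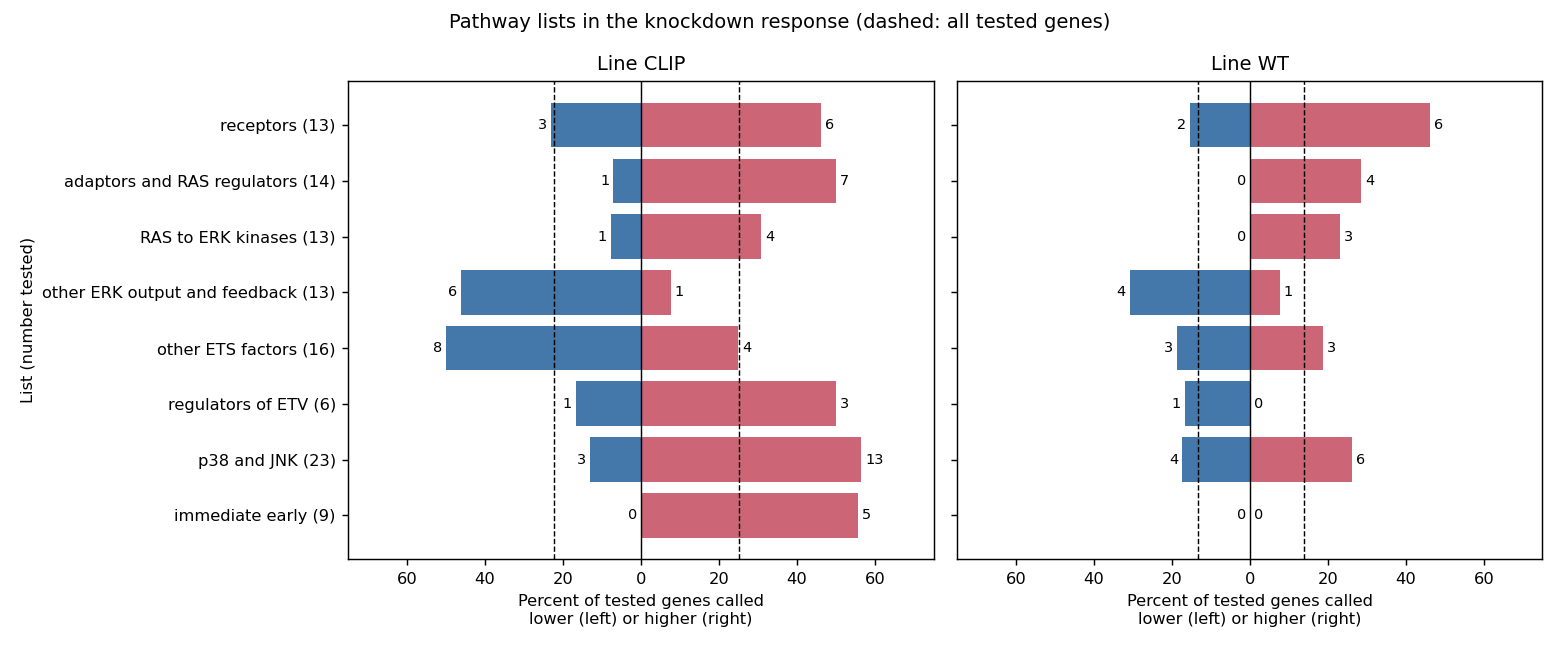
Percent of the tested genes of each pathway list called higher (red, right) or lower (blue, left) after knockdown in CLIP and WT, with the number of genes at each bar and dashed lines at the percent of all tested genes. Other output and feedback genes have 6 lower and 1 higher calls in CLIP and 4 lower and 1 higher in WT. The 9 immediate early genes have 5 higher calls in CLIP and none in WT. Of all tested genes 22.3% were called lower and 25.1% higher in CLIP, and 13.3% and 14% in WT.

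Of 16 other ETS factors 4 higher and 8 lower were called in CLIP and 3 higher and 3 lower in WT. The list counts in this paragraph stand beside 25.1% of all tested genes called higher in CLIP, where 22.3% were called lower. For WT these shares were 14% and 13.3%. ELK3 fell in WT from 22.6 ± 0.420 to 11.6 ± 1.08 CPM and ETS2 rose from 37.6 ± 3.11 to 57.1 ± 2.30 CPM (SD, n = 3). Of 6 regulators of ETV genes and proteins 3 higher and 1 lower were called in CLIP, where the 4 calls were 2 without siUPF1 replicate 2. In WT the only regulator called was DET1, an adaptor of a ubiquitin ligase that targets ETV proteins, at a log2 difference of -0.35 (SE 0.12). Of 23 p38 and JNK genes 13 higher and 3 lower were called in CLIP and 6 higher and 4 lower in WT. MAPK11, a p38 kinase, fell in WT from 13.4 ± 2.20 to 3.83 ± 1.22 CPM, a log2 difference of -1.84 (SE 0.23). TAOK1, a kinase upstream of p38 and JNK, fell there by 0.88 (SE 0.12). MAP2K6, which can activate the MAPK11 protein, stood at -0.32 in the same line.

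Immediate early genes, the transcripts that appear soon after ERK activation, are listed here for all 8 lines. Of 9, 5 higher and 0 lower were called in CLIP, 4 higher and 0 lower in K498A and 5 higher and 0 lower in DE636AA, beside 25.1%, 16.2% and 16.7% of all tested genes called higher. In R843C the calls were 0 higher and 0 lower (all tested genes: 17.7% higher), in A546H 1 higher and 2 lower (17.2% higher, 15% lower), in GA-KH 0 higher and 2 lower (14.5% higher, 13.8% lower) and in E797R 1 higher and 0 lower (16% higher). In WT edgeR called 0 of the 9, 3 had an unadjusted p under 0.05 and DESeq2 called 1. In R843C, also with 0 calls by edgeR, 2 had an unadjusted p under 0.05. Those called in CLIP were FOS, FOSB, JUN, IER2 and ATF3, named here after their values were seen, and 3 were called without siUPF1 replicate 2. EGR1, also named after its values were seen, is a transcription factor induced by ERK signalling. It rose in K498A from 9.53 ± 1.90 to 18.2 ± 4.34 CPM and in DE636AA from 12.04 ± 4.78 to 35.7 ± 7.73 CPM, and fell in GA-KH from 11.3 ± 3.46 to 6.28 ± 0.457 CPM (SD, n = 3). EGR1 went from 10.99 ± 3.38 to 11.6 ± 2.99 CPM in CLIP and from 12.8 ± 4.12 to 7.97 ± 1.85 CPM in WT, neither called. The difference in EGR1 between lines was not tested here.

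NMD transcripts are annotated in GENCODE 29 for 4 of the 10 genes, ETV1, ETV5, SPRED2 and MAP2K6, or 40%, against 41.4% of 13458 tested protein-coding genes. Gene-level counts do not separate those transcripts from the coding ones.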

How the data were processed

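RNA-seq was made from rRNA-depleted RNA of 48 libraries, in 16 groups of 3 that the series' design calls triplicate biological replicates. The authors deposited RSEM expected counts per gene, estimated read counts that were not normalized. The submitters' processing notes name cutadapt, STAR, RSEM, DESeq2 and the build hg19, and the annotation release and strand setting are not given in the sources used here. After rounding of these values to whole numbers, genes were kept by edgeR's filterByExpr over the 16 groups (19129 of 57820). Library totals ran from 21.3 to 47.1 M, and the spread between replicates also limited the precision. The chi-square per gene between 2 libraries of a group ran from 3.90 to 139. It was highest in the pairs with CLIP siUPF1 replicate 2, at 139 and 136, against 15.9 for replicates 1 and 3 of that group. edgeR 4.0.16 in R 4.3.3 was used with TMM normalisation and a quasi-likelihood fit with 1 term per group, and 28 comparisons were each adjusted by Benjamini-Hochberg over all tested genes (threshold 0.05). Log2 differences carry the standard error from that fit. Levels are means ± SD of CPM, and correlations used log2 CPM with a prior count of 2. Tested on simulated data of 18667 genes, the fit recovered 83% of 2-fold and 96% of 4-fold changes for the CLIP response. For the CLIP minus WT difference it recovered 53% and 84%. The false calls were 15 and 5. The simulation gave all genes the same dispersion and no replicate effect, so these shares need not hold in the real libraries.

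The genes and the pathway lists were chosen with earlier results of these data known. Named from each list were the 2 genes with the largest absolute response in WT among those called there with a mean of at least 5 CPM. Named as most alike were the 2 genes with the highest correlation, leaving out unnamed loci and pseudogenes. Over 10000 genes, the deviations of same-numbered siNT and siUPF1 libraries from their group means correlated over 0.1 in all 3 pairs in WT, K498A, DE636AA, R843C and GA-KH, but in 0 of 3 in CLIP, 2 of 3 in A546H and 1 of 3 in E797R. Between siNT libraries and CLIP siNT, all 3 pairs were over 0.1 in WT, DE636AA, R843C, A546H and E797R and 2 of 3 in K498A and GA-KH. This pairing comes from the data and not from the labels. Alternatives were DESeq2 (1.42.0), DESeq2 size factors in edgeR, no filter on low counts, the replicate number as a block, a fit to each line's own libraries, and leaving out each library. Promoters came from RefSeq (GRCh38.p14) and exon overlaps from GENCODE 29.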

Additional observations from a re-analysis of the deposited data

Results flagged for a closer look

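The knockdown response differed between lines, by the test of the difference itself, in 10 cases among the genes open to test. All values are differences of log2 responses with edgeR's Benjamini-Hochberg adjusted p. For SPRY4 they were 1.91 for DE636AA minus WT (adjusted p = 2.77e-05), 1.34 for R843C minus WT (adjusted p = 0.00457), 1.26 for K498A minus WT (adjusted p = 0.00784), 1.10 for CLIP minus WT (adjusted p = 0.00841) and 0.81 for DE636AA minus CLIP (adjusted p = 0.0285). For SPRED2 the value was 0.47 for DE636AA minus WT (adjusted p = 0.0303). For ETV1 the values were 1.20 for DE636AA minus CLIP (adjusted p = 0.00691) and 0.91 for K498A minus CLIP (adjusted p = 0.0493, and 0.195 without CLIP siUPF1 replicate 2). For DUSP6 they were -0.55 for E797R minus CLIP (adjusted p = 0.0246) and -0.48 for GA-KH minus CLIP (adjusted p = 0.04996). The comparisons share the WT or the CLIP libraries. They also use the libraries the genes were selected on, so these p-values are not independent support. When single libraries were left out, the 4 SPRY4 calls against WT and the ETV1 call in DE636AA were kept in all 12 fits. Calls were lost in 6 of 12 fits for SPRED2, 8 for ETV1 in K498A and 5 for SPRY4 in DE636AA minus CLIP. For DUSP6 they were lost in 9 of 12 fits in GA-KH and 4 in E797R.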

How the results depend on the processing

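No called value changed direction under any alternative, while uncalled values near 0 did, such as SPRED2 in CLIP (-0.01, and 0.09 without siUPF1 replicate 2). The number of genes called lower in each knockdown response stayed between 7 and 9 with other tools, filters or fits and between 6 and 9 without single libraries. DESeq2 size factors in edgeR moved no count by over 1.5 times.

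With no filter on low counts the genes called were 2 for R843C minus WT, 0 each for GA-KH and E797R minus CLIP, and 2, 3 and 1 for siNT K498A, DE636AA and A546H against CLIP. SPRED2 in DE636AA minus WT (0.51) and DUSP6 in GA-KH (-0.48) and E797R (-0.57) minus CLIP then lost their calls. With DESeq2 they were 2 for K498A and R843C minus WT, 1 for A546H and 2 each for GA-KH and E797R minus CLIP, and 1 and 3 for siNT K498A and DE636AA. Of the same-numbered pairs within lines, 18 of 24 correlated over 0.1 and 18 of 24 best with their own number, from -0.14 to 0.71. With the replicate block the counts were 3 for K498A and 2 for R843C minus WT, 2 for A546H and 3 each for GA-KH and E797R minus CLIP, and 1, 5 and 2 for siNT K498A, DE636AA and A546H.

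Of the lists, regulators of ETV held 1 call in CLIP and 0 in WT with no filter, and immediate early genes 3 in WT. The replicate block gave 5 RAS to ERK kinases and 1 immediate early gene in WT, and DESeq2 1 immediate early gene. A fit to a line's own libraries gave in CLIP 3 receptors, 2 adaptors, 2 RAS to ERK kinases, 2 other output genes, 0 regulators, 9 p38 and JNK genes and 3 immediate early genes, and in WT 2 adaptors and 0 regulators. Without single libraries the genes called ran from 0 to 1 for A546H minus CLIP, 1 to 3 for DE636AA minus CLIP, 0 to 2 for GA-KH and E797R minus CLIP, 0 to 2 for K498A minus CLIP, 1 to 2 for DE636AA, K498A and R843C minus WT, and 0 to 3 for siNT DE636AA. The lists ran from 3 to 5 (immediate early, CLIP), 0 to 1 (WT), 3 to 5 (other output, WT), 4 to 8 (RAS to ERK kinases, CLIP), 2 to 4 (regulators, CLIP) and 0 to 1 (WT).

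Over all genes, the CLIP response gave 3741 calls in its own libraries against 9066. The replicate block gave 1041 for K498A (623 without), 1427 for DE636AA (860), 573 for R843C (371) and 156 for A546H (57) minus WT, and 341 for R843C (144) and 1996 for A546H (1077) minus CLIP. With no filter GA-KH minus WT gave 35 and E797R minus WT 56 against 0 each, A546H minus WT 153 and R843C minus CLIP 332, while DESeq2 gave 124 and 297 for those last comparisons. For siNT against CLIP, no filter gave 764 in DE636AA (257), 339 in K498A (7), 111 in A546H (24), 74 in R843C (17), 66 in E797R (5), 57 in WT (6) and 57 in GA-KH (12). There the block gave 205, 1273, 32 and 78 in K498A, DE636AA, R843C and A546H, and DESeq2 gave 10, 60, 616, 28, 45 and 12 in WT, K498A, DE636AA, R843C, A546H and E797R. The cause of these changes was not tested. In the simulated CLIP minus WT difference 53% of 2-fold and 84% of 4-fold changes were recovered, so differences of these sizes can be missed.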

Other observations

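Within groups, the level of several of these genes followed the replicate number in the labels. DUSP4 was highest in replicate 3 in 16 of 16 groups, ETV4 in 15, SPRY4 in 13, and ETV5 and SPRY2 in 11 each. MAP2K6 was highest in replicate 1 in 15 groups and lowest in replicate 3 in 14. What the replicate number stands for is not given in the labels.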
